A study of Homo sapiens with 18 samples.

Results

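The genes of 4 related families, the ADAM, ADAMTS and MMP proteases and the TIMP inhibitors, were described in RNA of A549 cells exposed to airborne formaldehyde. A gene was a member when at least 1 probeset of the array named it alone, with a symbol made of ADAM, ADAMTS or MMP and a number, or TIMP1 to TIMP4. This rule gave 64 genes of the 19775 that the array names in this way, namely 20 ADAM, 18 ADAMTS, 22 MMP and 4 TIMP genes. They had 145 of the 41097 probesets that name a single gene, and 43 of the 64 had several. Each gene was read through its probeset of the highest mean log2 signal, and ADAM33 through both of its probesets. ADAM33 was chosen because it was known from these arrays to be lower at 0.5 ppm, so its values in the 0.5 ppm comparisons are given as a description, without a test. ADAM29 was named only by probesets shared with other genes and was not used here.

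A549 is a human lung carcinoma line with traits of alveolar type II epithelial cells, and all RNA came from this single line, grown at the air-liquid interface. In 9 experiments, cultures stood for 72 h in an exposure chamber that held 0, 0.1 or 0.5 ppm formaldehyde, with 3 experiments at each concentration. In the same experiments other cultures stood in a reference chamber that never held formaldehyde. This gives 6 groups of 3 arrays, with 1 array per chamber and experiment, and 18 arrays in all. An experiment is named by the concentration in its exposure chamber and its replicate number. Arrays of the same number at a concentration were taken as 1 experiment.

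Matrix metalloproteases (MMPs) are zinc enzymes that cut collagens, laminins and other matrix proteins, and most are secreted as inactive precursors. The ADAM proteins are anchored in the membrane and release the outer parts of other membrane proteins, among them growth factors and cytokines, while some members lack protease activity and serve in cell contact. The ADAMTS proteases are secreted and cut proteoglycans, procollagens or von Willebrand factor. The TIMPs bind the active site of these enzymes and block it. In the lung these families take part in matrix turnover and epithelial repair, and ADAM33 is known from genetic studies of asthma and bronchial hyperresponsiveness.

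The deposited values are MAS5 signals, scaled so that every array has a trimmed mean of 500, and they were compared as log2 signals. Array medians lay between 26.7 and 34.0, and the median probeset had a mean log2 signal of 4.78 over the 18 arrays. All 5 epithelial markers and all 4 genes known to be high in A549 lay above that median. Of the 4 leukocyte markers 2 did, LYZ at 11.76 and CD14 at 6.63, whereas PTPRC, which defines leukocytes, and CD3E, which defines T cells, lay at 1.77 and -0.44. Of 6 fibroblast markers COL1A1 lay above the median, at 8.16, and of 4 endothelial markers PECAM1, at 4.88. The signal of the 5′ actin probeset, a check of intact RNA, was 5.90 on the reference array of the 0.1 ppm experiment 1 and 6.85 on that of the 0 ppm experiment 3, against 7.75 to 9.70 on the other 16 arrays. Differences are log2 signal of the first group minus the second from limma, fitted on all 54675 probesets, and a gene is called changed at the threshold of the study, an unadjusted p of 0.05. The number of arrays limits the precision, and fewer cells of a kind and less RNA per cell cannot be told apart.

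A549 cells gave clear signals for the main membrane sheddases, 3 of the 4 TIMPs and a few matrix proteases, while most secreted ADAMTS and MMP genes lay in the lower range of the array. Of the 64 members, 27 lay above the median probeset, or 42.2% against 62.7% of all genes read the same way. The median of the members was 3.89, against 7.02 over the brightest probeset of every gene. By family, 10 ADAM, 5 ADAMTS, 9 MMP and 3 TIMP genes lay above the median probeset. Probesets differ in affinity, so signals place a gene against the array and do not order genes by amount of RNA.

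**Figure D1:**
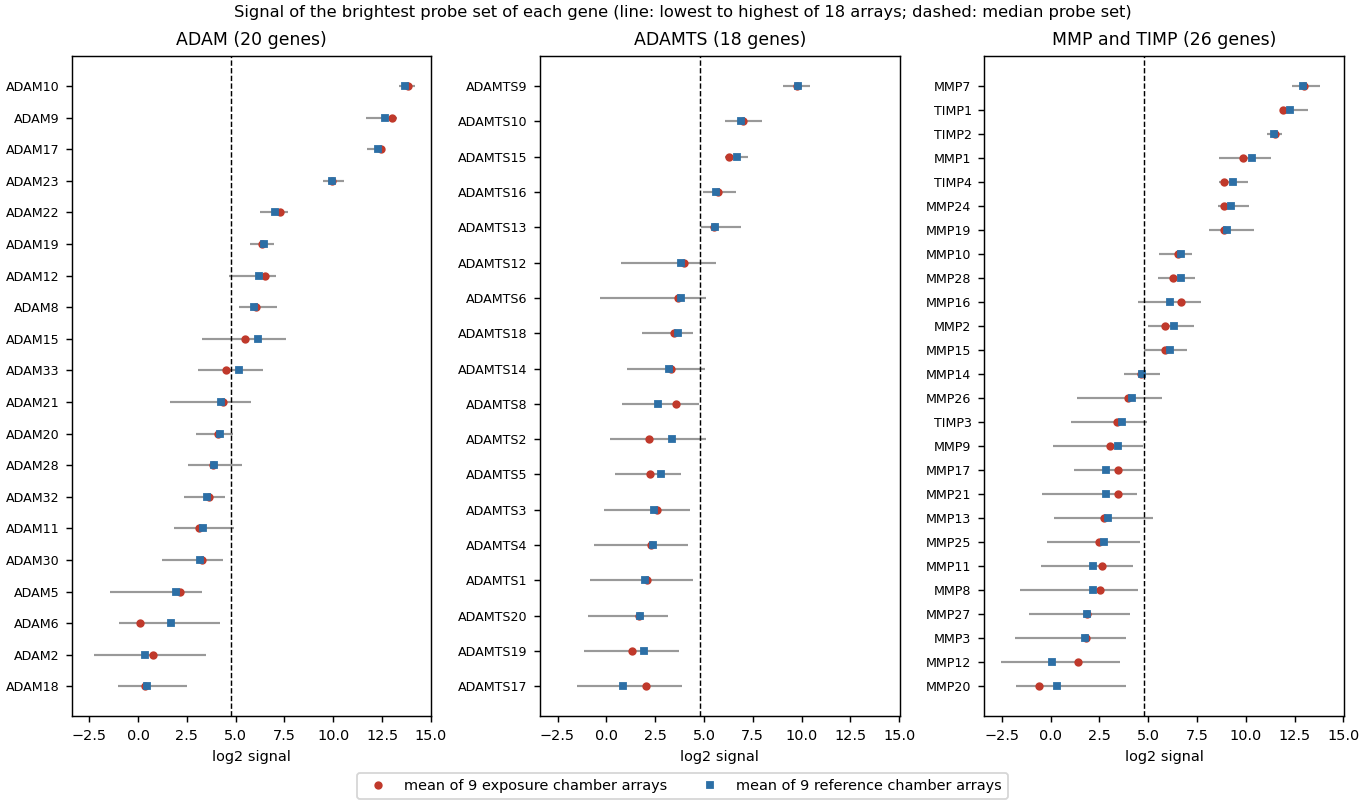
Mean log2 signal (horizontal axis) of the brightest probeset of each of the 64 genes (rows, sorted by signal within a family, which does not rank amounts of RNA), as circles for the 9 exposure chamber arrays and squares for the 9 reference chamber arrays, with a line from the lowest to the highest of 18 arrays and a dashed line at the median probeset. In 27 genes the mean of all 18 arrays lay to the right of the dashed line, and the long lines belong mostly to genes left of it.

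Among the 9 sheddase ADAMs, 8 lay above the median probeset, with mean log2 signals of 3.87 to 13.74 over the list. ADAM10, which releases Notch, cadherins and several growth factors, averaged 13.74, with all 18 arrays between 13.36 and 14.18. ADAM17, the enzyme that frees tumour necrosis factor and the ligands of the EGF receptor, averaged 12.37 (11.73 to 12.65), and ADAM9, a further sheddase, 12.84 (11.65 to 13.26). The exception was ADAM28, at 3.87. None of the 6 germ-line ADAMs, which act in sperm and testis, lay above the median, and the highest of them averaged 4.29. Of the 3 brain ADAMs, which lack protease activity and act in contacts between neurons, ADAM23 averaged 9.94 and ADAM22 also lay above the median. ADAM5 and ADAM6 are listed as pseudogenes and were placed in no role list.

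The inhibitors were high apart from TIMP3. TIMP1, the widely secreted inhibitor, averaged 12.09, TIMP2, which also helps to activate pro-MMP2, 11.47, and TIMP4 9.13. TIMP3, which is held in the matrix and blocks ADAM17 and ADAMTS enzymes as well, averaged 3.53, with arrays between 1.05 and 4.94. Of the gelatinases, which cut denatured collagen and basement membrane, MMP2 averaged 6.10 and MMP9 3.27. Of the 6 membrane-type MMPs 3 lay above the median, with MMP24 at 9.08, whereas MMP14, the activator of pro-MMP2, lay just below it at 4.66 (3.75 to 5.61). Among the secreted ADAMTS, none of the 3 that trim procollagens and 2 of the 7 that cut proteoglycans lay above the median. ADAMTS9, a protease for versican and aggrecan, was one of these 2 and averaged 9.79. MMP19, a broad matrix protease, averaged 8.97, with arrays between 8.10 and 10.41.

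A run of 9 neighbouring MMP genes on chromosome 11 gave very different signals. In the order of the protein-coding genes on the chromosome, MMP7, MMP20, MMP27, MMP8, MMP10, MMP1, MMP3, MMP12 and MMP13 follow each other without another protein-coding gene between them. MMP7 (matrilysin, an epithelial enzyme) averaged 12.96, MMP1 (interstitial collagenase) 10.09 and MMP10 (stromelysin 2) 6.61, and these 3 of the 9 lay above the median probeset. The other 6 averaged between -0.13 for MMP20, which acts in tooth enamel, and 2.86 for MMP13, a collagenase of cartilage and bone. To show how the promoters of such neighbours differ, the 250 bases before the annotated start of MMP7, MMP10 and MMP8 are printed 5′ to 3′ on the minus strand, from RefSeq (GRCh38.p14), at chr11:102530748-102530997, chr11:102780629-102780878 and chr11:102724955-102725204. Capitals mark the letters of an AP-1 site (TGACTCA or TGAGTCA, searched on both strands) and of a TATA box (TATAAA or TTTATA, both strands).
MMP7: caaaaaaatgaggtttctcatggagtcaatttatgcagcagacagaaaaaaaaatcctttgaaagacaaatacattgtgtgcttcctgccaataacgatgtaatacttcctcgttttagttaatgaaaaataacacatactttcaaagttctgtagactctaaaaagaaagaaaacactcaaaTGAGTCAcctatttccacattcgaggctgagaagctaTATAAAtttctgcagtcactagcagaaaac
MMP10: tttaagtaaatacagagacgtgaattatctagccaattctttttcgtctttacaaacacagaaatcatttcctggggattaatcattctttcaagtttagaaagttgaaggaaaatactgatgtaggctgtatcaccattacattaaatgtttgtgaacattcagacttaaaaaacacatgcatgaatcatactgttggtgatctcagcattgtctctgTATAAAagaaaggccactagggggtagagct
MMP8: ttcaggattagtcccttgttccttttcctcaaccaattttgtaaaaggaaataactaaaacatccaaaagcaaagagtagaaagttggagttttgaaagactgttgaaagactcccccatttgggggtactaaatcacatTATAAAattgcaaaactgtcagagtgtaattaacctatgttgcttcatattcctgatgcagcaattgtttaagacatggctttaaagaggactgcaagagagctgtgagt
AP-1 letters stood in the window of MMP7 alone among the 36 member genes that matched the promoter table, against 4.2% of all 35116 windows of that length. MMP1, MMP3, MMP12 and MMP13 of the run were not among these 36. Their windows were not searched, so MMP7 is not shown to be the only gene of the run with such letters. TATA box letters stood in 7 of the 36 genes, MMP7, MMP8, MMP10, MMP20, MMP21, MMP26 and ADAMTS10, against 10.72% of all windows. These are matches of letters, and binding was not measured.

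The spread between replicates set what could be seen in each gene. The standard deviation within groups had a median of 0.49 (0.19 to 1.18) on the log2 scale over the 27 members above the median probeset, and of 1.30 (0.57 to 1.95) over the 37 at or below it. In the dim members linear signals ran from 0.169 to 56.0, so a log2 difference there can stand for a few units of signal. Among the 12 genes of the highest mean signal, MMP1 had the widest spread, with a standard deviation within groups of 0.82 and single arrays between 8.61 and 11.30, and ADAM10 the narrowest, at 0.19.

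ADAM33 was lower at 0.5 ppm through its brighter probeset and not through the other. The brighter probeset lay at the middle of the array, with a mean of 4.85, and its design type allows matches to other transcripts. At 0.5 ppm it had log2 signals of 3.55, 3.06 and 4.16 in the exposure chamber, against 5.46, 4.44 and 5.97 in the reference chamber of the same experiments and 5.69, 4.62 and 4.60 at 0 ppm in the exposure chamber. All 3 arrays exposed to 0.5 ppm lay below all 6 of these controls. In linear signal the group averaged 12.6 ± 4.82, against 42.8 ± 20.6 in the reference chamber and 33.5 ± 15.8 at 0 ppm (SD, n = 3 each). The differences were -1.70 (standard error 0.51) and -1.38 (standard error 0.45). Leaving out 1 array at a time gave -2.13 to -1.36 and -1.66 to -1.02, and adding 32 to every signal before the logarithm gave -0.71 and -0.53. ADAM33 was chosen for being lower on these same arrays. The separation from the controls and these ranges therefore describe that choice and are no support for it.

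The lower of the 2 ADAM33 probesets, with a mean of 1.86, read 2.69, 1.23 and 3.05 in the exposure chamber at 0.5 ppm, against 2.24, 1.41 and 0.74 in the reference chamber and 1.97, 1.82 and 2.03 at 0 ppm. These groups overlapped, and the differences were 0.86 and 0.39. At 0.1 ppm the brighter probeset read 4.11, 5.35 and 5.44 in the exposure chamber, against 4.96, 3.99 and 4.89 in the reference chamber, a difference of 0.35 (adjusted p = 1.00 from limma). With 0 ppm in the exposure chamber the 5.69, 4.62 and 4.60 stood against 4.78, 6.40 and 5.82 in the reference chamber, a difference of -0.70 (adjusted p = 0.880 from limma). The reference chambers, which never held formaldehyde, thus covered 3.99 to 6.40 over 9 arrays, and 1 of the 3 arrays at 0.5 ppm, at 4.16, lay within that range.

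**Figure D2:**
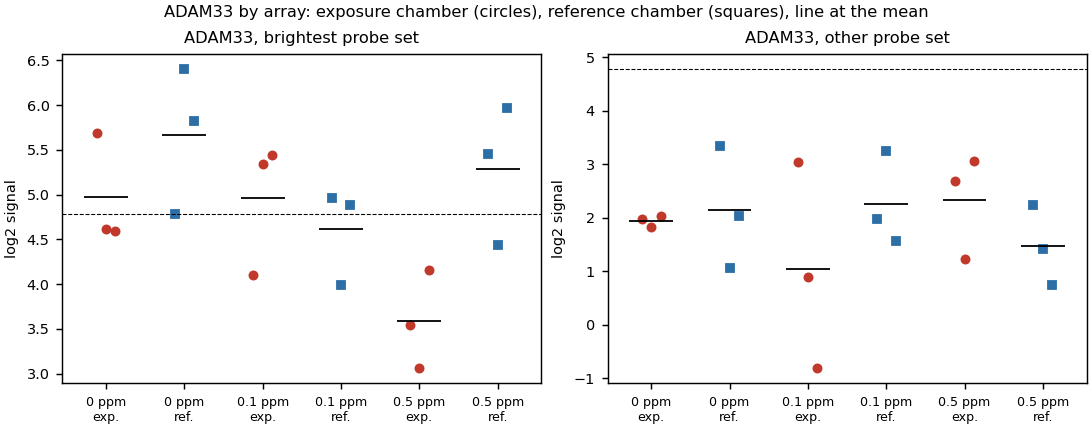
Log2 signal (vertical axis) of the brighter and the other probeset of ADAM33 by group (horizontal axis), as circles for exposure chamber arrays and squares for reference chamber arrays, with a line at the mean of 3 and a dashed line at the median probeset. At 0.5 ppm the brighter probeset averaged 3.59 in the exposure chamber and 5.29 in the reference chamber, while the other probeset overlapped between chambers.

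With 0 ppm in both chambers, MMP9 was the 1 member of 64 called, against 4.84% of all probesets (1.92% higher and 2.92% lower). MMP9, the gelatinase of neutrophils and activated epithelium, read 2.22, 3.21 and 3.83 in the exposure chamber and 4.14, 4.30 and 4.73 in the reference chamber. The groups did not overlap, and the difference was -1.30 (standard error 0.48, adjusted p = 0.880 from limma). For this and the later called genes, overlap was read on the arrays that gave the call. A lack of overlap is thus no further support, and its share among all probesets was not counted. The call was lost without exposure replicate 1 or 2 or without any of the 3 reference replicates. With the experiment as a block 3 members were called (5.69% of all probesets), MMP9, the sheddase ADAM15 (-1.46) and the procollagen protease ADAMTS2 (-1.89), each with an adjusted p of 0.813. ADAM15 read 3.28, 6.31 and 5.77 in the exposure chamber against 5.27, 6.88 and 7.59 in the reference chamber, where the highest value is that of the array of low actin signal. Its other probeset averaged 5.49 in the exposure chamber and 5.85 in the reference chamber. Unpaired, the count was 5 without exposure replicate 3 or reference replicate 1, 2 without reference replicate 2, and 0 without exposure replicate 1 or 2.

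At 0.1 ppm, 4 of 64 members were called between chambers, against 4% of all probesets (1.54% higher and 2.46% lower). All 4 were higher with formaldehyde and lay below the median probeset. The median difference over the members was -0.16, against -0.07 over all probesets, and 27 of 64 were positive. ADAMTS8, a proteoglycan-cutting protease, read 3.99, 4.35 and 2.93 in the exposure chamber and 2.44, 0.79 and 1.19 in the reference chamber, a difference of 2.29 (standard error 0.61, adjusted p = 0.944 from limma). The groups did not overlap. Its reference arrays at 0 ppm, at 3.66, 3.85 and 4.75, lay above those of the 0.1 ppm experiments and near the exposed ones. The other 2 probesets of ADAMTS8 had differences of -0.26 and -0.21.

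MMP12, the macrophage elastase, read 0.43, 3.32 and 3.00 at 0.1 ppm and 0.18, 0.04 and -1.86 in the reference chamber, a difference of 2.80 (standard error 0.94). MMP27, a little studied relative of the stromelysins, read 3.49, 3.14 and 3.70 against 1.86, 2.25 and -0.73, a difference of 2.32 (standard error 0.81). ADAM30, a testis ADAM, read 3.32, 3.89 and 3.99 against 2.74, 2.57 and 1.56, a difference of 1.44 (standard error 0.46), while its other probeset had -0.11. The adjusted p was 1.00 for each of these 3 genes. The exposed arrays lay above all 3 reference arrays for each of the 3 genes, by 0.25 in the closest case, MMP12. The genes were chosen by their call on these arrays, so this separation adds no support. The calls of ADAM30 and MMP12 were lost without exposure replicate 2, exposure replicate 3 or reference replicate 3, and that of MMP27 without exposure replicate 1 or 3. Without exposure replicate 3 the count was 1, ADAMTS8. That gene kept its call without any single array.

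At 0.5 ppm, 3 of 64 members were called between chambers, or 2 of 63 without ADAM33, against 3.92% of all probesets (1.66% higher and 2.26% lower). The median difference was -0.16 over the members and -0.04 over all probesets, and 24 of 64 were positive. ADAMTS13, the protease of von Willebrand factor, read 5.93, 5.79 and 5.76 in the exposure chamber and 5.10, 4.83 and 5.29 in the reference chamber. It was higher by 0.75 (standard error 0.24, adjusted p = 1.00 from limma) with no overlap, but its other probeset had -0.81, and at 0 ppm its exposure arrays read 4.83, 4.85 and 6.17. The call was lost without exposure replicate 1 or reference replicate 2. MMP27 read 2.50, 1.09 and -1.09 in the exposure chamber and 2.35, 4.05 and 3.52 in the reference chamber, a difference of -2.48 (standard error 0.99, adjusted p = 1.00). Its groups overlapped, the sign was opposite to that at 0.1 ppm, and 4 of the 6 arrays ended the call when left out, replicates 2 and 3 of either chamber.

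Pairing the chambers of each experiment changed which members were called at 0.5 ppm. With the experiment as a block the count was 6 of 64, or 5 of 63 without ADAM33 (5.32% of all probesets), with ADAMTS13 kept and MMP27 lost (adjusted p = 0.919 for ADAMTS13 and 0.966 for MMP27). The 4 others were the collagenase MMP8 (2.20), MMP12 (1.45), the membrane-type MMP17 (1.42) and ADAMTS12, a protease of cartilage matrix proteins (-1.43), with adjusted p of 0.872 to 0.935. All 4 lay below the median probeset. MMP8 read 3.34, 1.78 and 3.96 in the exposure chamber and 1.93, -1.54 and 2.10 in the reference chamber, so that the groups overlapped and each exposed array was higher than its partner. Unpaired and without ADAM33, the count was 1 without exposure replicate 2 or 3 or reference replicate 3, 3 without exposure replicate 1, and 4 without reference replicate 1 or 2. At 0.1 ppm the block called the same 4 members as the unpaired fit.

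Against 0 ppm in the same exposure chamber, 5 of 64 members were called at 0.5 ppm, or 4 of 63 without ADAM33, against 4.56% of all probesets (1.93% higher and 2.63% lower), and all were lower. ADAM2, a fertilin subunit of sperm, read -0.36, -0.89 and -1.85 at 0.5 ppm and 1.74, 2.72 and 2.13 at 0 ppm. Its difference of -3.23 (standard error 0.48, adjusted p = 0.360 from limma) had the lowest adjusted p of any member in these comparisons and remained called without any single array. In the reference chamber of the same 0.5 ppm experiments, without formaldehyde, it read -2.28, -0.32 and 0.52, which overlaps the exposed arrays. With 32 added to the signals the call was lost.

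Of the others, ADAMTS14, a procollagen protease, read 3.12, 3.07 and 2.66 at 0.5 ppm and 4.69, 3.63 and 4.23 at 0 ppm, a difference of -1.23 (standard error 0.34, adjusted p = 0.907). ADAM8, a sheddase of leukocytes and inflamed tissue, read 5.66, 5.79 and 5.79 against 6.12, 6.50 and 7.12, a difference of -0.83 (standard error 0.31, adjusted p = 1.00). In this comparison it was the 1 called member other than ADAM33 above the median probeset, and between chambers at 0.5 ppm it had -0.14. ADAM18, a sperm ADAM, read -0.04, -1.01 and -0.98 against 1.19, 1.41 and -0.26, a difference of -1.45 (standard error 0.55, adjusted p = 1.00), with 0.07 in its other probeset. ADAMTS14 kept its call without any single array but lost it with an eBayes trend and with all 18 arrays in 1 fit. ADAM8 lost it without any of the 3 arrays at 0.5 ppm and without replicate 2 or 3 at 0 ppm, and ADAM18 without replicate 1 or 2 at 0 ppm or replicate 2 or 3 at 0.5 ppm. Without ADAM33 the count was 3 to 6 when 1 array was left out.

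At 0.1 ppm against 0 ppm in the exposure chamber, 3 of 64 members were called, against 4.47% of all probesets (1.77% higher and 2.7% lower). MMP27 was higher, with the same 3.49, 3.14 and 3.70 as above against 0.92, 2.91 and 0.19 at 0 ppm, a difference of 2.11 (standard error 0.73). At 0.1 ppm MMP27 was thus called in both comparisons that the study combined, and it was not called between chambers at 0 ppm. How many of all probesets meet this combined rule was not counted, so this is not shown to be particular to MMP27. Both MMP27 comparisons share the exposed arrays. ADAM28, an ADAM of lymphocytes and epithelium, read 3.21, 3.64 and 3.37 against 3.87, 4.65 and 4.24, a difference of -0.85 (standard error 0.29), while its 3 other probesets had -1.96, -0.44 and 1.03. ADAMTS1, a protease for aggrecan and versican, read 2.38, 0.38 and -0.83 against 2.75, 4.42 and 2.24, a difference of -2.49 (standard error 0.98), against 2.18 in its other probeset. The adjusted p was 1.00 for all 3. MMP27 lost its call without any of the 6 arrays except replicate 2 at 0 ppm. ADAM28 lost it without replicate 1 or 3 at 0.1 ppm or replicate 2 or 3 at 0 ppm, and ADAMTS1 without replicate 2 or 3 at 0.1 ppm or replicate 1 or 2 at 0 ppm. Without replicate 1 at 0.1 ppm the count was 1, ADAMTS1.

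**Figure D3:**
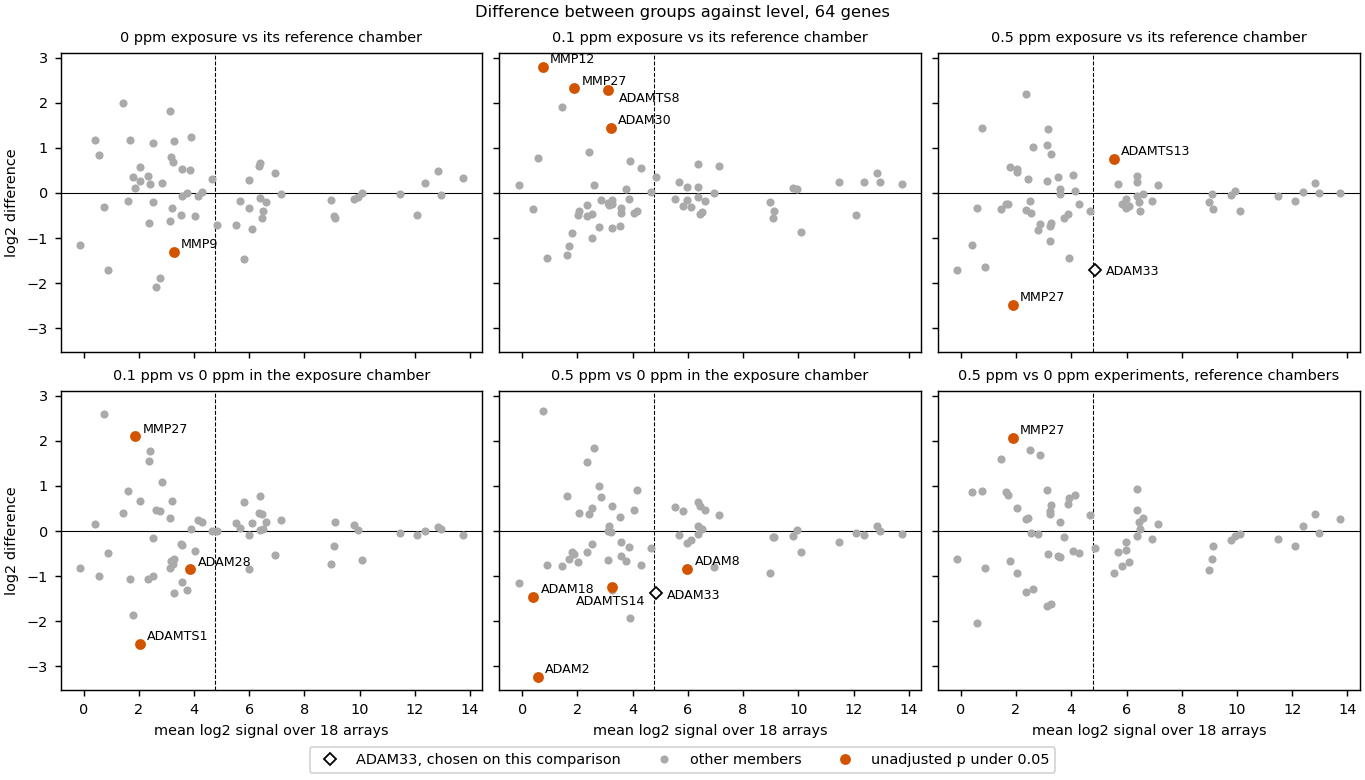
Log2 difference (vertical axis) against mean log2 signal over 18 arrays (horizontal axis) for the 64 genes in 6 comparisons, with called members in orange, ADAM33 as an open diamond where it was chosen on the comparison, and a dashed line at the median probeset. Differences beyond 1 in size lie almost all left of the dashed line, and the last panel, between reference chambers without formaldehyde, has a spread like that of the others.

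By role, the lists of 4 or more genes had median differences between -0.29 and 0.30 at 0.5 ppm between chambers, and apart from ADAM33 the calls there were ADAMTS13 and MMP27, which belong to the lists of other ADAMTS and other MMPs. The 9 sheddase ADAMs had a median difference of -0.07, the 4 TIMPs -0.13, the 6 membrane-type MMPs 0.17 and the 5 stromelysins and matrilysins 0.30, against -0.04 over all probesets. These 4 lists held 0 calls apart from ADAM33, a sheddase ADAM that was chosen on this comparison. The 7 proteoglycan-cutting ADAMTS had a median of -0.25 with 0 calls, and the 3 procollagen ADAMTS, with 0 calls, were all negative, from -0.82 to -0.18. At 0.1 ppm between chambers the sheddases had a median of 0.13 with 0 calls and the TIMPs -0.45 with 0 calls, and the 3 collagenases were all negative, from -0.87 to -0.15, with 0 calls. With 0 ppm in both chambers the TIMPs likewise had a median of -0.48, with all 4 negative and 0 calls. The TIMP reference arrays at 0 and 0.1 ppm include the 2 of low actin signal, on which TIMP1 and TIMP4 were high.

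ADAM10 and MMP7 show how the bright members read by array. ADAM10 read 13.80, 14.18 and 13.65 in the exposure chamber at 0 ppm, 13.73, 13.68 and 13.97 at 0.1 ppm and 13.74, 13.71 and 14.02 at 0.5 ppm. In the reference chamber of these experiments it read 13.66, 13.52 and 13.48, then 13.36, 13.65 and 13.77, then 13.65, 13.90 and 13.94. The chambers overlapped in all 3 kinds of experiment. MMP7 read 12.81, 13.08 and 13.04 in the exposure chamber at 0 ppm, 12.92, 12.36 and 13.78 at 0.1 ppm and 12.93, 12.61 and 13.41 at 0.5 ppm, with 12.37 to 13.28 over the 9 reference arrays. All groups of MMP7 overlapped.

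At 0.5 ppm against the reference chamber the differences of the brightest members were small. ADAM10 differed by -0.01 (95% interval -0.59 to 0.58), ADAM17 by 0.01 (-0.59 to 0.61) and ADAM9 by 0.21 (-0.38 to 0.81). MMP7 differed by 0.00 (-0.77 to 0.77), TIMP1 by -0.19 (-0.80 to 0.43) and TIMP2 by -0.07 (-0.61 to 0.47). These intervals leave out a change of 1 on the log2 scale in either direction, and so they did for 14 of the 26 members above the median other than ADAM33. For MMP1, at -0.40 (-1.89 to 1.09), and MMP2, at -0.29 (-1.72 to 1.14), such a change was within the interval. Over the 37 dim members the interval reached a median of 2.03 to either side, and 2 of the 37 left such a change out. At 0.1 ppm against the reference chamber, whose replicate 1 had the low actin signal, values were larger, with MMP1 at -0.87 (-2.65 to 0.90), TIMP1 at -0.49 (-1.62 to 0.64), ADAM9 at 0.45 (-0.77 to 1.68) and TIMP4 at -0.40 (-1.46 to 0.66). There 1 of the 26 left such a change out, and against 0 ppm in the exposure chamber 14 did at 0.5 ppm and 15 at 0.1 ppm.

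Comparisons between arrays that never met formaldehyde also gave calls. Between the reference chambers of the 0.1 ppm and the 0 ppm experiments 6 of 64 members were called (3.68% of all probesets, 1.45% higher and 2.24% lower): ADAMTS8 (-2.62), ADAMTS1 (-1.72), MMP25 (-1.81) and ADAM30 (-1.11) lower, ADAMTS19 (2.10) and ADAM18 (1.69) higher. Between those of the 0.5 ppm and the 0 ppm experiments 1 was called (4.54% of all probesets, 1.72% higher and 2.82% lower), MMP27, at 2.07 (adjusted p = 0.923 from limma). That count was 6 without replicate 1 at 0 ppm, 3 without replicate 1 or 2 at 0.5 ppm, and 2 without replicate 3 at 0 ppm. The lower reference arrays of ADAMTS8 and ADAM30 at 0.1 ppm are those of the chamber comparison above. Likewise, the MMP27 arrays of the reference chamber at 0.5 ppm, at 2.35, 4.05 and 3.52, stood against 1.23, 2.00 and 0.48 in that chamber at 0 ppm.

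**Figure D4:**
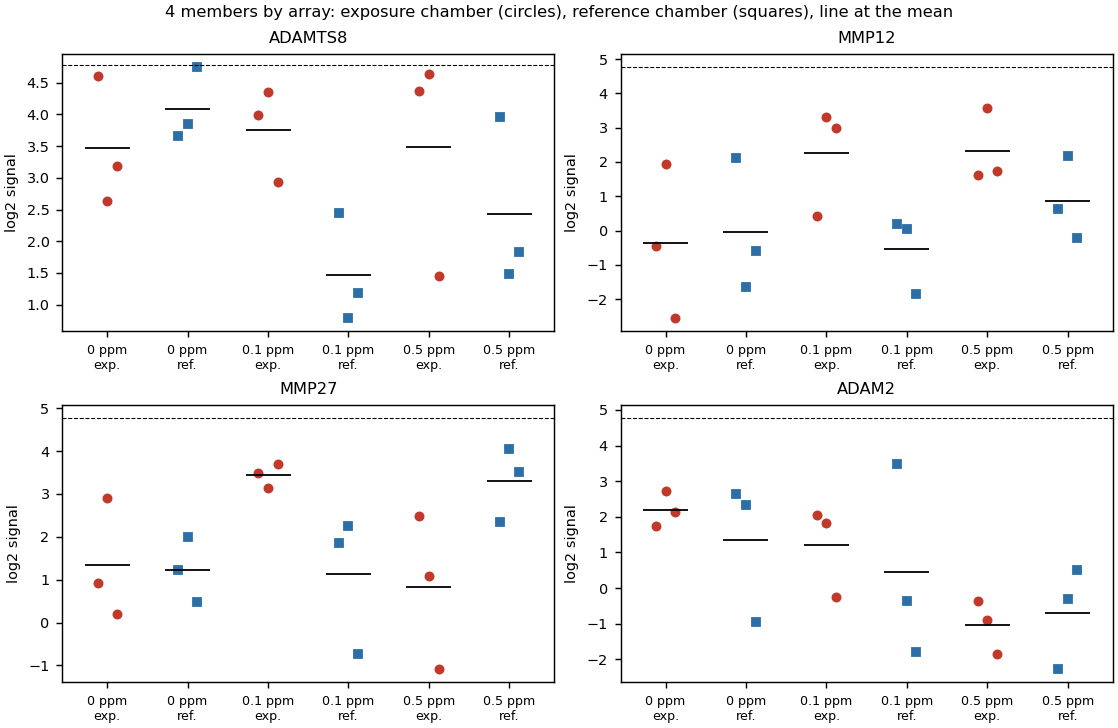
Log2 signal (vertical axis) by group (horizontal axis) for ADAMTS8, MMP12, MMP27 and ADAM2, as circles for exposure chamber arrays and squares for reference chamber arrays, with a line at the mean of 3 and a dashed line at the median probeset. The ADAMTS8 reference arrays at 0.1 ppm have the lowest group mean among its reference groups, and the ADAM2 arrays of the 0.5 ppm experiments lie low in both chambers.

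The chamber difference itself was compared between experiments. At 0.5 ppm against 0 ppm it differed in 2 of 64 members (3.69% of all probesets, 2.04% higher and 1.66% lower), ADAM18 (-2.32, standard error 0.78) and MMP25, a membrane-type MMP of leukocytes (3.11, standard error 1.34). At 0.1 ppm against 0 ppm it differed in 2 (3.21% of all probesets, 1.61% higher and 1.59% lower), ADAMTS8 (2.90, standard error 0.89) and ADAM30 (1.77, standard error 0.78). With the experiment as a block the counts were 5 and 1 (4.72% and 3.9% of all probesets), with MMP25 and ADAM30 lost. The count at 0.5 ppm was 4 without reference replicate 1 at 0 ppm, and 1 without reference replicate 2 or exposure replicate 1 or 2 at 0 ppm. That at 0.1 ppm was 1 without exposure replicate 1 at 0 ppm, exposure replicate 2 or 3 at 0.1 ppm or reference replicate 3 at 0.1 ppm. After adjustment limma called 0 members in any comparison between these groups, where 1 to 6 passed unadjusted, and 0 of all 54675 probesets passed.

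The 2 arrays of low 5′ actin signal stood apart in many bright probesets of the whole array, the bright members among them. Both lay above all 16 other arrays in 8 of the 27 members above the median probeset (29.63%, against 23.97% of all such probesets) and below all of them in 3 (11.11%, against 18.25%). TIMP1 read 13.20 and 13.10 on these arrays and at most 12.28 on the others, and MMP24 9.94 and 10.15 against at most 9.50. ADAM9 read 11.67 and 11.65 against at least 12.66 on the others, and ADAM10 and ADAM17 were the further members below all other arrays. These are values of the brightest probeset. A second ADAM10 probeset went the other way, at 10.09 and 9.87 against at most 9.98 on the others. A second ADAM9 probeset, at 6.41 and 6.87, lay within the range of the others, 5.95 to 7.52. A second ADAM17 probeset was again below them, at 11.57 and 11.56 against at least 11.69. The gelatinase MMP2, at 7.14 and 7.32 against at most 6.74, and the sheddase ADAM15, at 7.54 and 7.59 against at most 6.88, were higher on these arrays. The other ADAM15 probeset, with a mean of 5.73, read 6.38 and 5.93 against at most 6.35, so it did not stand apart on both. Both are reference chamber arrays, and the part of RNA quality in the chamber differences was not tested beyond leaving them out.

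Taking all 9 experiments as pairs by replicate number, whatever the concentration, TIMP4 and MMP16 differed between chambers in the same direction every time. This comparison was chosen after the data had been seen. The share of all probesets with the same direction every time was not counted, so this is not shown to be particular to these genes. It called 6 of 64 members (10% of all probesets, 2.55% higher and 7.48% lower), 1 higher and 5 lower in the exposure chamber, and none passed adjustment in limma (lowest adjusted p = 0.494). TIMP4, an inhibitor known mainly from heart, averaged 8.91 ± 0.24 in the exposure chamber and 9.34 ± 0.41 in the reference chamber (SD, n = 9 each). It was lower in 9 of 9 experiments, with a mean difference of -0.44 (standard error 0.12, adjusted p = 0.494 from limma), and of -0.31 (adjusted p = 0.748 from limma) without the 2 experiments of low actin signal. MMP16, a membrane-type MMP, averaged 6.66 ± 0.64 in the exposure chamber and 6.11 ± 0.82 in the reference chamber, was higher in 9 of 9, by 0.56 (standard error 0.17, adjusted p = 0.494 from limma), and by 0.35 (adjusted p = 0.748 from limma) without those 2. Unpaired, the MMP16 call was lost.

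TIMP4 was lower in the exposure chamber with 0 ppm as well, at 8.70, 9.09 and 8.87 against 9.17, 9.36 and 9.80. At 0.1 ppm it read 9.32, 8.85 and 9.08 against 10.14, 8.90 and 9.41, and at 0.5 ppm 8.63, 8.63 and 8.99 against 8.83, 9.17 and 9.33. MMP16 read 6.88, 6.43 and 7.62 at 0.1 ppm in the exposure chamber against 5.73, 6.31 and 6.98, and 6.48, 6.27 and 7.73 at 0.5 ppm against 6.47, 5.61 and 7.28. At 0.1 ppm its exposure replicate 1, at 6.88, lay below reference replicate 3, at 6.98. The same direction in every experiment thus depends on the pairing by number. ADAMTS15, a proteoglycan-cutting protease (-0.40), MMP24 (-0.36), MMP2 (-0.46) and the pseudogene ADAM6 (-1.60) were the others called. Without the 2 experiments of low actin signal these 4 were not called, at -0.23, -0.19, -0.22 and -0.89, and the count was 3 of 64 (6.57% of all probesets), with MMP17 (1.38) beside TIMP4 and MMP16. Leaving out 1 experiment, MMP24 lost its call without the 0 ppm experiment 2 or 3 or the 0.1 ppm experiment 1 or 3. MMP2 lost it without any of the 0 ppm experiments, the 0.1 ppm experiment 1 or the 0.5 ppm experiment 1 or 2. ADAM6 lost it without the 0 ppm experiment 1 or 3, the 0.1 ppm experiment 1 or 2, or the 0.5 ppm experiment 1 or 3.

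**Figure D5:**
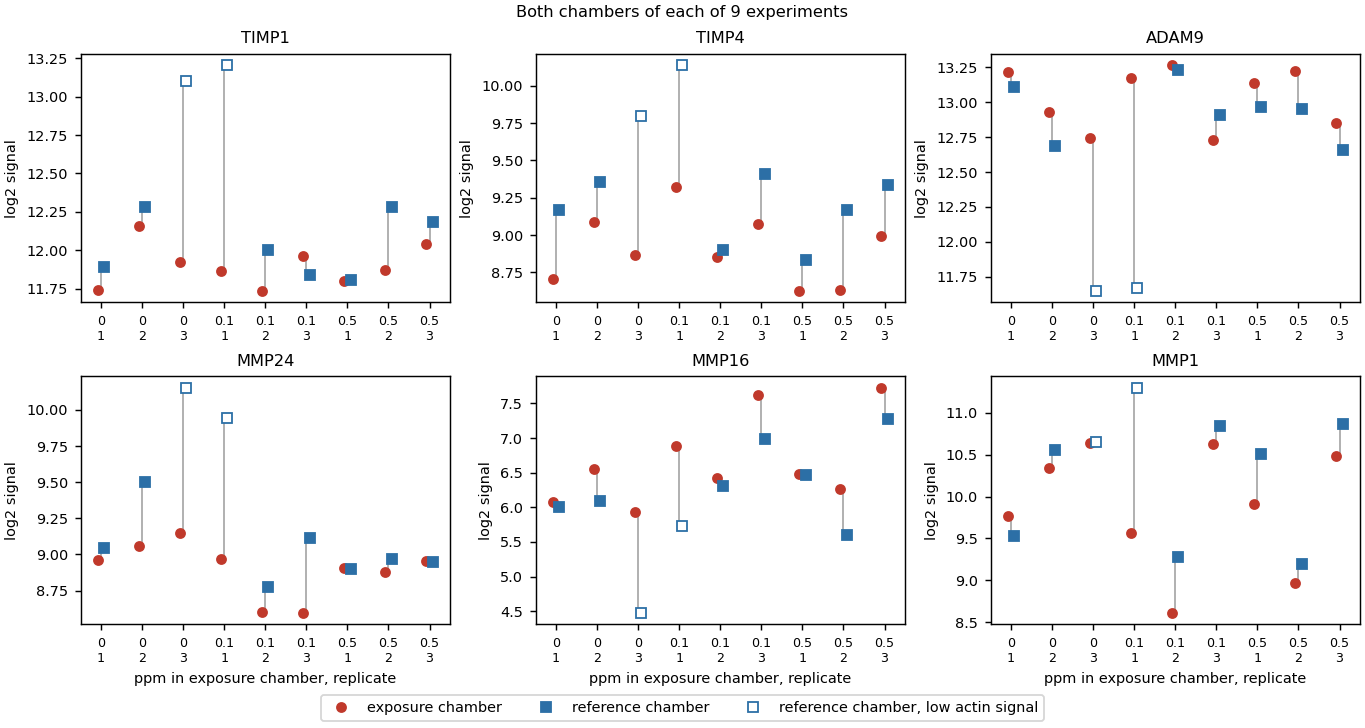
Log2 signal (vertical axis) of TIMP1, TIMP4, ADAM9, MMP24, MMP16 and MMP1 in the exposure chamber (circles) and the reference chamber (squares, open for the 2 arrays of low actin signal) of each of 9 experiments (horizontal axis, ppm in the exposure chamber and replicate number). TIMP4 is lower and MMP16 higher in the exposure chamber in 9 of 9 experiments, and the open squares stand apart for TIMP1, ADAM9 and MMP24.

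Over 9 experiments the exposure and reference signals correlated positively for 21 of the 27 members above the median probeset (77.8%, median r 0.485), against 80.5% of all 27338 such probesets (median r 0.327). After adjustment over the 27 members 0 passed by Pearson's r. MMP10 had r = 0.81 (exact permutation p = 0.00948, adjusted p = 0.0853) and rho = 0.92 (exact permutation p = 0.00131, adjusted p = 0.0354, two-sided, over 27 members), and r = 0.84 without the 2 experiments farthest from the median. ADAM23 had r = 0.84 (exact permutation p = 0.00524, adjusted p = 0.0853) and rho = 0.83 (exact permutation p = 0.00827, adjusted p = 0.0744), and r = 0.68 without the 2 farthest. MMP1 had r = 0.72 (exact permutation p = 0.0349, adjusted p = 0.189) and rho = 0.57 (exact permutation p = 0.121, adjusted p = 0.326). Without the 2 farthest experiments MMP1 had r = 0.17, and without the 2 of low actin signal it had 0.92. Leaving out the farthest experiments narrows the range, which can itself lower r. The value of 0.17 thus cannot show whether the relation rests on them. Centring each chamber on its mean at each concentration, an alternative added after the data had been seen, gave r = 0.81 for MMP10 (exact permutation p = 0.116 within concentrations), 0.87 for ADAM23 (exact permutation p = 0.0185) and 0.84 for MMP1 (exact permutation p = 0.037). Each had an adjusted p of at least 0.281 over the 27 members. With centring, 21 of the 27 were positive (median r 0.335), against 77.5% of all such probesets (median r 0.335).

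Most partners and substrates of these enzymes gave signals above the median probeset. Of 31 activators, inhibitors and partners outside the families, 23 lay above it, among them FURIN, which activates many pro-ADAMs and membrane-type MMPs (7.98), and RHBDF1 and RHBDF2, which carry ADAM17 to the surface (7.75 and 7.30). RECK and BSG, a membrane inhibitor and an inducer of MMPs, averaged 8.92 and 9.07. Of 18 shed substrates 16 lay above it, with CD44 at 13.75, APP at 13.62 and MET at 13.12. At 0.1 and 0.5 ppm against the reference chamber limma called 0 of 31 and 0 of 18 without adjustment. Of all probesets, 4% and 3.92% were called there, so few calls would stand in lists of this size. TNF, the classic ADAM17 substrate, at a mean of 0.86, was lower in the exposure chamber with 0 ppm in both (-3.29, adjusted p = 0.280 from limma) and higher at 0.5 than at 0 ppm in the exposure chamber (2.53, adjusted p = 0.557 from limma). These TNF comparisons share the 0 ppm exposure arrays. In the exposure chamber against 0 ppm the other call was ADAMTSL2, a secreted ADAMTS-like protein, higher at 0.5 than at 0 ppm (0.89, adjusted p = 1.00 from limma). The chamber difference of TNF was higher than that at 0 ppm at both 0.5 ppm (3.10) and 0.1 ppm (3.46), and that of THBS2, a matrix protein that binds MMP2, was lower at 0.1 ppm (-2.09), each with an adjusted p of 1.00 from limma. THBS2 had a mean log2 signal of 4.90. Both TNF values share the 0 ppm arrays with the comparisons before.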

How the data were processed

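RNA from 18 cultures was hybridised to Affymetrix HG-U133 Plus 2.0 arrays after amplification from the 3′ end. The authors computed MAS5 signals in R, and the deposited intensity values are linear signals scaled to a trimmed mean of 500 per array, without detection calls. No deposited column of values was left unused (0). MAS5 takes each array alone, and amplification from the 3′ end reads mainly the 3′ part of a transcript.

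Log2 signals were compared in R 4.3.3 with limma 3.58.1 (lmFit, eBayes) between 3 arrays and 3, as the methods of the study describe, at an unadjusted p of 0.05, with Benjamini-Hochberg adjustment over all 54675 probesets. The script was tested on simulated data. Groups came from the labels. The chambers of an experiment ran in parallel, and the number of a sample was taken to mark the experiment, which the labels do not state. On this assumption pairs were also fitted with the experiment as a block. Deviations of same-numbered arrays from their group means correlated at 0.0086 to 0.49 over the probesets above the median. At 0.1 ppm exposure array 3 correlated at 0.0086 with reference array 3 and at 0.28 with reference array 1. The pairs of replicate 1 at 0.1 ppm (0.049) and of replicate 2 at 0 ppm (0.0095) were weak as well. For arrays of different numbers at the same concentration the range was -0.43 to 0.28. Every paired result rests on this assumption. Replicates are separate experiments on 1 cell line.

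Named genes are ADAM33, every member called in any of the 5 comparisons of the study, the 12 of the highest mean signal and a fixed list of well-known members. The other members named (the chromosome 11 run, calls under the block, between reference chambers, in the chamber difference, over 9 experiments and in the correlation of the chambers) were chosen after their values were seen. Members, role lists and partner lists were chosen with earlier results of these data known. Genes were named through the platform annotation, and neighbours on chromosome 11 through RefSeq. Alternatives were quantile normalization, log2(signal + 32), probesets above the median only, an eBayes trend, all 18 arrays in 1 fit, a model of treatment and chamber, the block, any probeset of a gene, and leaving out each array or those of low actin signal.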

Additional observations from a re-analysis of the deposited data

Results flagged for a closer look

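The chamber difference differed between experiments in 4 members, by the test of the difference itself in limma at an unadjusted p of 0.05. ADAM18 had a chamber difference at 0.5 ppm that was lower than that at 0 ppm by -2.32 (standard error 0.78, adjusted p = 1.00). MMP25 had one that was higher by 3.11 (standard error 1.34, adjusted p = 1.00). At 0.1 ppm against 0 ppm, ADAMTS8 had 2.90 (standard error 0.89, adjusted p = 1.00) and ADAM30 1.77 (standard error 0.78, adjusted p = 1.00). All 4 lie below the median probeset, and 3.69% and 3.21% of all probesets passed the same test. The part of the 0 ppm chamber difference, in which no culture received formaldehyde, was not tested apart from that of formaldehyde.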

How the results depend on the processing

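The 20 results followed under the alternatives were calls of members other than ADAM33. Of their 256 values, 160 kept the call, 96 lost it and 0 changed sign. The results were chosen by their call on the same arrays. The lack of sign changes was thus largely set by that choice and adds no support. The 256 values include the block for comparisons with 0 ppm in the exposure chamber, that of ADAM2 among them. There the number is shared by separate experiments and pairs nothing. TIMP4 over 9 experiments kept its call in 15 of 15 alternatives, ADAMTS8 at 0.1 ppm in 12 of 13 (lost in the model of treatment and chamber) and ADAM2 in 10 of 11.

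Counts of called members moved more. With the experiment as a replicate block they were 6 for 3 at 0.5 ppm between chambers, 3 for 1 at 0 ppm, and 5 for 2 and 1 for 2 for the chamber difference at 0.5 and at 0.1 ppm against 0 ppm. Between the reference chambers at 0.5 and 0 ppm the block gave 3 for 1, but there the number is shared by separate experiments and pairs nothing. Counting a gene through any of its probesets gave 9, 8 and 5 between chambers at 0, 0.1 and 0.5 ppm, 8 and 8 against 0 ppm in the exposure chamber at 0.1 and 0.5 ppm, 10 and 8 between reference chambers, and 5 and 5 for the chamber differences, against 5.65% to 8.34% of all 19775 genes so called. Probesets above the median alone gave 0 between chambers at 0 and at 0.1 ppm, 0 and 0 between reference chambers, and 0 and 1 for the chamber differences at 0.1 and 0.5 ppm. With log2(signal + 32) the counts were 2 at 0 ppm between chambers, 1 and 0 between reference chambers at 0.1 and 0.5 ppm, and 1 for the chamber difference at 0.1 ppm. All 18 arrays in 1 fit gave 2 at 0 ppm, 3 and 2 between reference chambers and 1 for the chamber difference at 0.1 ppm, and an eBayes trend gave 2 and 1 for the last pair at 0.1 ppm. Without the low actin arrays the count between reference chambers at 0.5 and 0 ppm was 2. Over 9 experiments it was 3 without the block and 3 without the 2 experiments of low actin signal.

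Leaving out 1 array at a time gave 0 to 5 members between chambers at 0 ppm, 1 to 6 at 0.1 ppm and 1 to 5 at 0.5 ppm. It gave 1 to 4 and 3 to 7 against 0 ppm in the exposure chamber at 0.1 and 0.5 ppm, and 4 to 7 and 1 to 6 between reference chambers. For the chamber differences it gave 1 to 3 and 1 to 4, and leaving out 1 of 9 experiments gave 4 to 8. The cause of these moves was not tested. For most of these settings no share of all probesets stands beside the count. A move of the members thus cannot be told from a move of the whole array. With 3 arrays a group and signals near background, the 95% interval of a difference reached a median of 2.03 to either side at 0.5 ppm between chambers for the 37 dim members, and 0.1 ppm results rest on a reference group that holds an array of low actin signal.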

Other observations

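TFPI2, an inhibitor of plasmin and of several MMPs that is not a TIMP, averaged 12.07, and LCN2, which binds MMP9 and keeps it from degradation, 9.93.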
